A study of Mus musculus with 8 samples.

Results

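The SLC25 mitochondrial carriers were examined in RNA sequencing of mouse heart ventricle. The members are the genes of the deposited table whose symbol starts with Slc25a and a digit, except 7 (Slc25a4, Slc25a5, Slc25a11, Slc25a12, Slc25a13, Slc25a20 and Slc25a44), which leaves 40 of the 24341 genes in the table. The rule itself uses symbols and no measured value. The 8 libraries came from ventricular lysates of male mice of 12 weeks, all homozygous for floxed Med13 and Med13l and all fed tamoxifen chow, 4 weeks after tamoxifen. The 4 control libraries (cre_negative) are from mice without Cre, and the other 4 (cre_positive) from mice with a Cre meant to delete both genes in cardiomyocytes. The Cre driver is not named in the labels, and both groups received the drug, so a group with Cre and without floxed alleles is not part of the comparison. The comparison asks how carrier transcripts of the ventricle differ when Cre is present, and each library carries the number its title gives.

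SLC25 proteins form the largest family of solute carriers and most of them sit in the inner mitochondrial membrane, which is otherwise closed to charged metabolites. Each is built of repeated modules around a central binding site that opens in turn to the cytosol and to the matrix, and most exchange a substrate on the outside for another on the inside. In the heart they bring phosphate to ATP synthase, keep nucleotides and cofactors in the matrix, and move citrate, amino acids, iron and glutathione across the membrane.

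The unit is FPKM, the fragments of a transcript scaled to its length and to the depth of the library. A gene was tested where its mean over the 8 libraries was at least 1 FPKM, and called at a Benjamini-Hochberg adjusted p under 0.05 over all tested genes in limma. Log2 changes are cre_positive minus cre_negative on the log2(FPKM + 1) scale, where changes of weakly expressed genes come out too small, and each is given with its standard error (SE). Nothing in the labels says that the libraries of a group came from separate animals, so the p-values measure only the spread between these samples. The names of cre_negative libraries 1 and 2 share a stem, and the labels do not say whether these come from 1 mouse. Estimated depth was 4.47 to 23.4 in units of 1e+06 fragments, and the ribosomal precursor Rn45s stood at 396 FPKM or more in 5 libraries and at 16.0 FPKM or less in the other 3 (cre_negative 2, cre_positive 3 and 4), which also had the highest depth. The targeted genes were lower in cre_positive libraries, Med13 at 12.0 ± 2.23 against 8.13 ± 0.554 FPKM and Med13l at 4.92 ± 0.814 against 2.52 ± 0.113 FPKM (SD, n = 4). These values cover whole genes and all cells of the tissue, not the deleted exons.

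Of the 40 carriers 30 were tested and 13 were called, 4 higher (Slc25a23, Slc25a1, Slc25a25 and Slc25a39) and 9 lower (among them Slc25a34, Slc25a42, Slc25a22, Slc25a29, Slc25a38, Slc25a51, Slc25a35 and Slc25a15). That is 43.3% of the tested carriers, beside 39.2% of all 11688 tested genes, of which 19.7% were called higher and 19.4% lower. The share of carriers called was thus near that of all genes. The groups did not overlap for 12 of the 30 carriers, or 40%, beside 38% of all tested genes. The median log2 change was -0.15 over the tested carriers and -0.01 over all tested genes. A log2 change of at least 1 in either direction was reached by 3 called carriers, Slc25a23, Slc25a34 and Slc25a42, and by 5.94% of all tested genes. Each library was also scaled to a fixed sum, taken without gene symbols that start like those of ribosomal proteins, ribosomal RNA and small noncoding RNAs. This moved the median of all tested genes to 0.26, and the carriers called became 10 higher and 4 lower. Directions below are therefore relative to the deposited scale.

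**Figure D1:**
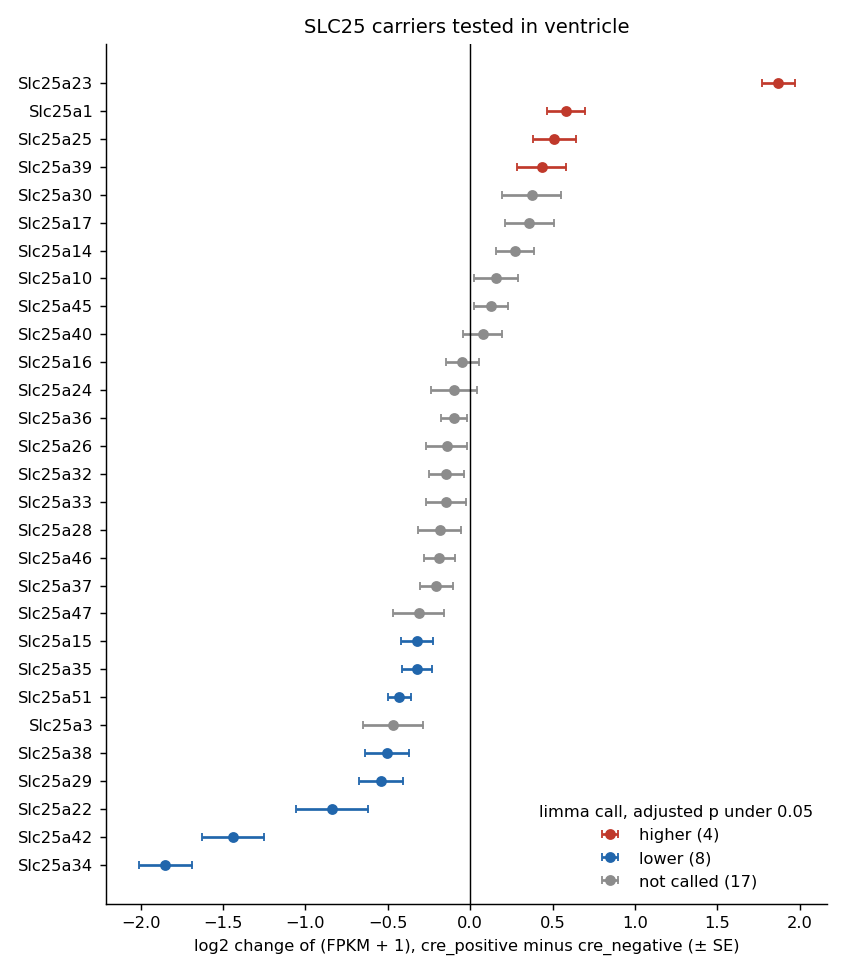
Log2 change of FPKM + 1 (cre_positive minus cre_negative, x axis) with its SE for 29 of the 30 tested carriers, coloured by limma call. Slc25a23 stands apart at 1.87, Slc25a34 and Slc25a42 lie at -1.85 and -1.44, and 17 carriers were not called.

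The upstream windows of the carrier with the largest called rise and of those with the largest called falls are shown because these 3 carry the largest differences. Each was taken from the 250 bases before the transcript start of the RefSeq promoter table (GRCm38.p6) that equals the deposited gene start. For Slc25a23 and Slc25a34 the RefSeq gene reaches 46 and 57 bases further out, and those bases are left off, so 204 and 193 are shown. The letters are on the gene's strand from 5′ to 3′, in lower case, with capitals for a match to the motifs named next.
Slc25a23, upstream window, chr17:57059910-57060113, minus strand: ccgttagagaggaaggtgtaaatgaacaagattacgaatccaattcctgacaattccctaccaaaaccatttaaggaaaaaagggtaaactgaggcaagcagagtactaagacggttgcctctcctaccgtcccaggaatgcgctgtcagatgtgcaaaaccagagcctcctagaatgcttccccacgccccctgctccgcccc
Slc25a34, upstream window, chr4:141623892-141624084, minus strand: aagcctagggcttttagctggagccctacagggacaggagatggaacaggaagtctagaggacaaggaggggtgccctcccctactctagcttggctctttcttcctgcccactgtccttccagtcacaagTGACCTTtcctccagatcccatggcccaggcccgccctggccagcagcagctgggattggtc
Slc25a42, upstream window, chr8:70212282-70212531, minus strand: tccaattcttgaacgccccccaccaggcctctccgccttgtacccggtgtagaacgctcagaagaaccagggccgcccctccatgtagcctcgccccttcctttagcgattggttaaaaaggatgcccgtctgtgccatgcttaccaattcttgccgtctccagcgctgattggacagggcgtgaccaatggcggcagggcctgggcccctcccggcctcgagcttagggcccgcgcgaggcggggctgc
The 3 stretches differ in composition. G and C made up 50% of the Slc25a23 stretch, 59.1% of the Slc25a34 stretch and 63.6% of the Slc25a42 stretch, and the dinucleotide CG occurred 7, 1 and 18 times. Whole windows of 250 bases were searched on both strands for 4 motifs in all 32851 RefSeq promoters. Among these, 30 of the 40 carriers matched by symbol, with 40 windows. Percentages are per window, while a carrier is counted once if any of its windows matched, so the figures are not directly comparable. TNAAGGTCA, the element bound by estrogen-related receptors, was in 1.14% of all windows and in no carrier window. The palindromic motif of nuclear respiratory factor NRF1 was in 0.782% of all windows and in no carrier window. CACGTG, the E-box, was in 6.02% of all windows and in those of 6 carriers, Slc25a1, Slc25a14, Slc25a15, Slc25a31, Slc25a33 and Slc25a36. AAGGTCA, a nuclear receptor motif contained in the first and added after the Slc25a34 window had been read, was in 4.08% of all windows and, among carriers, in that of Slc25a34 alone, 113 to 119 bases before its deposited start on the opposite strand. A match is a description of letters only.

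Of the 3 tested ATP-Mg/phosphate carriers Slc25a23 and Slc25a25 were called higher and Slc25a24 was not called, where 39.2% of all tested genes were called. These proteins carry calcium-binding domains toward the outside of the membrane and exchange ATP bound to magnesium for phosphate, which sets the adenine nucleotide pool of the matrix. Slc25a23 (chromosome 17, 57043711 to 57059863 in mm10) was found at 9.52, 8.60, 10.05 and 10.7 FPKM in controls 1 to 4, against 45.1, 36.0, 35.5 and 36.5 FPKM in cre_positive libraries 1 to 4. Every cre_positive library lay above every cre_negative library, and cre_positive library 1 was highest. The mean rose from 9.73 ± 0.902 to 38.3 ± 4.58 FPKM (SD, n = 4), 3.94-fold, for a log2 change of 1.87 ± 0.10 (SE; limma adjusted p = 9.02e-07). The log2 change was 1.90 among the 5 libraries with high Rn45s and 1.95 among the 3 with low Rn45s.

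Slc25a25 (chromosome 2, 32414487 to 32455476) had a smaller rise. It stood at 2.47, 3.33, 2.86 and 3.72 FPKM in controls, against 4.43, 3.96, 5.77 and 5.18 FPKM with Cre, without overlap (log2 change 0.51 ± 0.13 SE, limma adjusted p = 0.0104). It was not called among the 5 high-Rn45s libraries alone (0.38, adjusted p = 0.138). The annotation places 379 of its exon bases opposite exons of Naif1, and whether strand was used in counting is not stated. Naif1 had means of 1.34 ± 0.298 FPKM in controls and 2.04 ± 0.412 FPKM with Cre (SD, n = 4). Its groups did not overlap, and it was not called (log2 change 0.38, limma adjusted p = 0.0507). The locus given for Slc25a25 ends 4006 bases beyond the RefSeq gene. Slc25a24, the third of the ATP-Mg/phosphate carriers, stood at 3.96, 3.91, 4.13 and 5.13 FPKM in controls, against 5.40, 3.56, 3.17 and 3.81 FPKM with Cre. Its groups overlapped, and the 95% interval of its log2 change ran from -0.40 to 0.21. Slc25a41, a further relative that adjoins Slc25a23 on chromosome 17, was listed at 0.01 FPKM, the lowest value of the table, in all 8 libraries.

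Because a ratio of 2 genes within a library does not depend on how libraries are scaled, related carriers were also compared as log2 ratios of their FPKM, with a two-sided permutation test that is exact (70 ways to divide the libraries, smallest possible p = 0.0286). Of 12 pairs 11 had both genes tested. The ratio of Slc25a23 to Slc25a24 was 1.26, 1.14, 1.28 and 1.07 in controls against 3.06, 3.34, 3.49 and 3.26 with Cre, a difference of 2.10. The ratio of Slc25a23 to Slc25a25 was 1.66 ± 0.26 in controls against 2.99 ± 0.33 with Cre (SD, n = 4), a difference of 1.33. Slc25a23 was therefore already the most abundant of the 3 in controls, and its margin was larger in each cre_positive library. Each of these ratios had an exact permutation p of 0.0286, and 0.0786 after adjustment over the 11 pairs, so that none of the pairs passed the adjusted threshold.

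Slc25a3, which brings in the phosphate for ATP synthase, was the most abundant of the 40 carriers and ranked 133rd of the 11688 tested genes by mean level. It stood at 660, 911, 502 and 614 FPKM in controls, against 361, 483, 531 and 545 FPKM with Cre. The groups overlapped, since cre_negative library 3 lay below cre_positive libraries 3 and 4. The mean was 672 ± 173 and 480 ± 83.7 FPKM (SD, n = 4), and it was not called (log2 change -0.47 ± 0.18 SE, limma adjusted p = 0.0657). It was called lower without cre_negative library 3 (-0.60, adjusted p = 0.0229) and with the Rn45s set as a term in the fit (-0.59, adjusted p = 0.00409). Slc25a3 held 59.8% to 67.4% of the FPKM summed over the 40 carriers in controls against 52.0% to 60.2% with Cre, so a sum over the 40 mostly follows this gene. The testis form of the adenine nucleotide carrier, Slc25a31, stayed at 0.669 FPKM or less.

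Of the 4 tested carriers of carboxylates and uncoupling protein-like carriers among the 40, Slc25a1 was called (25%, beside 39.2% of all tested genes). It exports citrate to the cytosol, where citrate feeds lipid synthesis. Slc25a1 (chromosome 16, 17925211 to 17928219) stood at 3.04, 3.82, 4.38 and 4.13 FPKM in controls, against 5.80, 5.48, 7.22 and 6.44 FPKM with Cre. The groups did not overlap, and the mean rose from 3.84 ± 0.586 to 6.24 ± 0.767 FPKM (SD, n = 4), for a log2 change of 0.58 ± 0.12 (SE; limma adjusted p = 0.00259). It was not called among the 5 high-Rn45s libraries alone (0.46, adjusted p = 0.0739). The dicarboxylate carrier Slc25a10 had means of 3.48 ± 0.742 and 3.97 ± 0.570 FPKM (SD, n = 4; controls first) and was not called. The uncoupling protein-like carriers Slc25a14 and Slc25a30 had log2 changes of 0.27 and 0.37 with limma adjusted p of 0.0879 and 0.122. Slc25a14 passed without cre_positive library 4 (0.34, adjusted p = 0.0495) and Slc25a30 without cre_negative library 2 (0.51, adjusted p = 0.0324). The neuronal Slc25a27 and the oxodicarboxylate carrier Slc25a21 were under the filter, at most at 1.22 and 0.0827 FPKM.

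Of the 5 tested amino acid carriers 4 were called lower and 0 higher, beside 19.4% called lower and 39.2% called over all tested genes. Slc25a22, the main importer of glutamate together with protons, stood at 7.17, 13.1, 6.54 and 12.1 FPKM in controls, against 4.94, 3.47, 4.77 and 6.27 FPKM with Cre. The controls spread widely and the lowest of them lay close above the highest cre_positive library. The mean fell from 9.72 ± 3.34 to 4.86 ± 1.15 FPKM (SD, n = 4), for a log2 change of -0.84 ± 0.22 (SE; limma adjusted p = 0.0118). Among the 5 high-Rn45s libraries alone its adjusted p was 0.0524. Slc25a38 (chromosome 9, 120110399 to 120124319) carries glycine into the matrix for the first step of heme synthesis. It stood at 13.0, 15.7, 10.3 and 11.02 FPKM in controls, against 6.90, 8.33, 9.04 and 9.57 FPKM with Cre, without overlap (log2 change -0.51 ± 0.14 SE, limma adjusted p = 0.0138). Scaling to a fixed sum ended the call (-0.22, adjusted p = 0.151).

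Slc25a29, a carrier of basic amino acids, stood at 1.98, 2.70, 2.08 and 2.39 FPKM in controls, against 1.23, 0.868, 1.29 and 1.70 FPKM with Cre (log2 change -0.54 ± 0.13 SE, limma adjusted p = 0.00837). Under scaling to a fixed sum it was not called (-0.35, adjusted p = 0.0508). The smallest estimated fragment count among these libraries was 10.8, in cre_positive library 1, so counting error is large at this level. Slc25a15, the ornithine carrier of the urea cycle, fell from 6.36 ± 0.332 to 4.92 ± 0.640 FPKM (SD, n = 4), and its adjusted p of 0.0239 became 0.0635 without cre_negative library 1 and 0.0539 without cre_positive library 3. Under scaling to a fixed sum its log2 change was -0.06 (adjusted p = 0.631). Slc25a45 had means of 1.82 ± 0.289 and 2.07 ± 0.129 FPKM (SD, n = 4; controls first) and was not called. Slc25a2 and the second glutamate carrier Slc25a18 were under the filter, at most at 0.336 and 0.193 FPKM. The locus given for Slc25a2 reaches far beyond the RefSeq gene.

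Cofactor carriers held the second largest called fall among the 40 carriers. Slc25a42 (chromosome 8, 70184340 to 70212281) brings coenzyme A into the matrix in exchange for adenine nucleotides. It stood at 10.7, 9.43, 11.1 and 9.08 FPKM in controls, against 2.08, 2.23, 3.79 and 4.74 FPKM with Cre. The highest cre_positive library lay well below the lowest control, and the cre_positive libraries with low Rn45s were higher than those with high Rn45s. The mean fell from 10.1 ± 0.974 to 3.21 ± 1.28 FPKM (SD, n = 4), 3.14-fold lower, for a log2 change of -1.44 ± 0.19 (SE; limma adjusted p = 1.74e-04). The log2 change was -1.83 among high-Rn45s and -0.99 among low-Rn45s libraries, where 1 control stands against 2 cre_positive libraries.

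Slc25a16, a relative linked to coenzyme A as well, was not called. It stood at 13.7, 13.1, 12.9 and 16.1 FPKM in controls, against 11.5, 14.7, 14.3 and 13.3 FPKM with Cre, with a 95% interval of its log2 change from -0.27 to 0.17. The log2 ratio of Slc25a16 to Slc25a42 was 0.36, 0.47, 0.21 and 0.83 in controls against 2.47, 2.72, 1.92 and 1.49 with Cre, a difference of 1.68 without overlap (exact permutation p = 0.0286, adjusted p = 0.0786).

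Slc25a51, the carrier of NAD into the matrix, showed a smaller fall with little spread. It stood at 22.3, 23.2, 24.1 and 22.03 FPKM in controls, against 16.1, 17.4, 16.8 and 16.8 FPKM with Cre. Its mean fell from 22.9 ± 0.941 to 16.7 ± 0.517 FPKM (SD, n = 4), for a log2 change of -0.43 ± 0.07 (SE; limma adjusted p = 6.17e-04). Under scaling to a fixed sum it was not called (-0.14, adjusted p = 0.136).

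**Figure D2:**
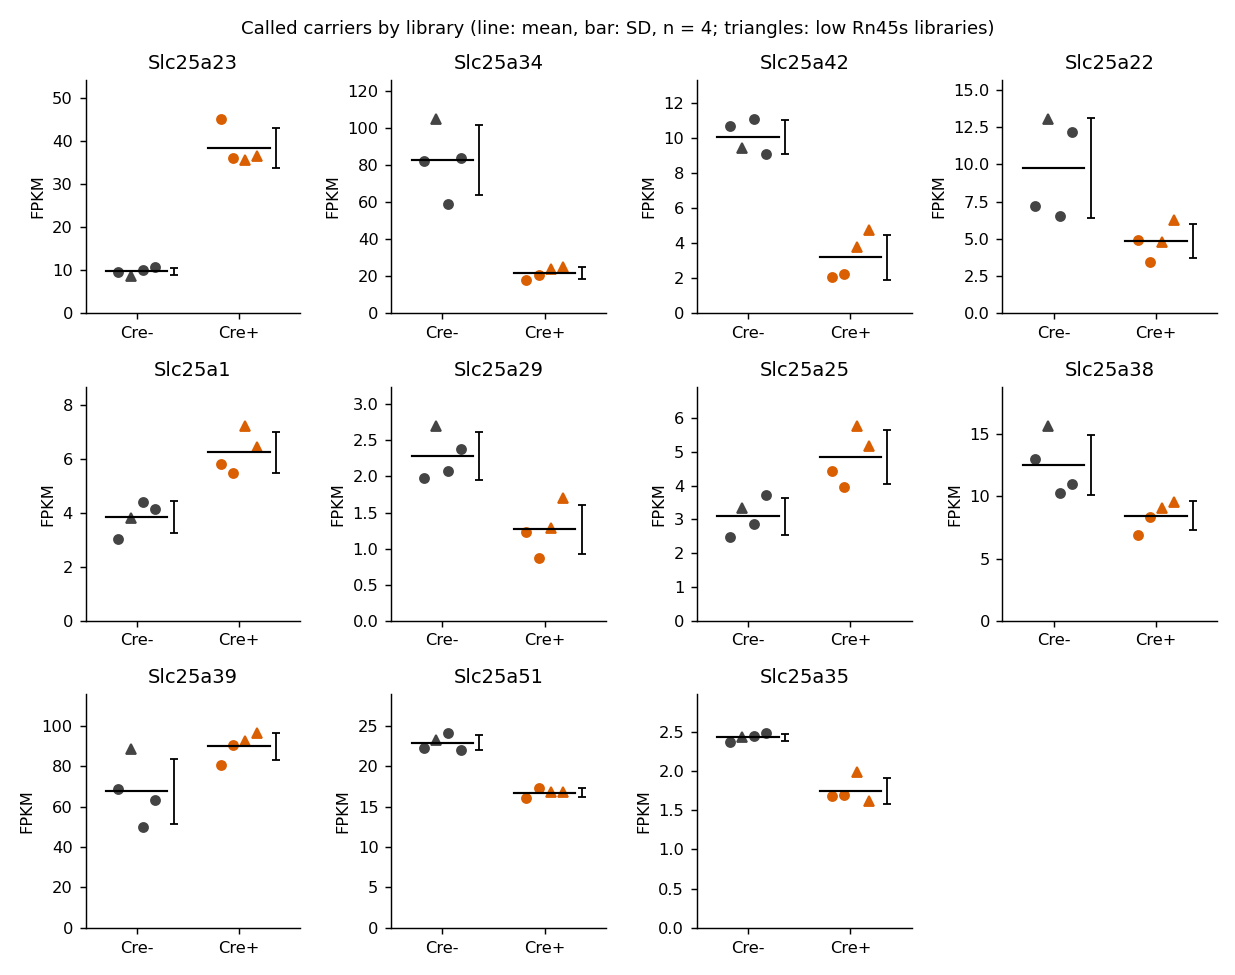
FPKM (y axis, from 0) in each cre_negative (Cre-) and cre_positive (Cre+) library for 11 of the 12 called carriers with the largest change; lines are means, bars SD (n = 4) and triangles the 3 libraries with low Rn45s. Groups are apart in 10 panels, and in that of Slc25a39 cre_negative library 2 at 88.3 FPKM lies above cre_positive library 1 at 80.7 FPKM.

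Slc25a39, which imports glutathione, had the second highest mean of the 40 carriers after Slc25a3. Slc25a39 stood at 68.7, 88.3, 49.9 and 63.3 FPKM in controls, against 80.7, 90.4, 92.2 and 96.3 FPKM with Cre, so the groups overlapped. It was called higher (log2 change 0.43 ± 0.15 SE, limma adjusted p = 0.0387), but the adjusted p was 0.0692, 0.0695, 0.0910, 0.0832, 0.0880 and 0.0945 without cre_negative library 1, 3 or 4 or cre_positive library 2, 3 or 4. Its log2 change was 0.50 among high-Rn45s and 0.09 among low-Rn45s libraries, and 12 of 21 alternatives kept the call. Its homologue Slc25a40 had means of 4.91 ± 0.683 and 5.23 ± 0.745 FPKM (SD, n = 4; controls first) and was not called.

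Other carriers of cofactors and nucleotides were not called. Log2 changes were -0.14 for Slc25a26 (S-adenosylmethionine), -0.15 for Slc25a32 (folate), and -0.15 and -0.10 for Slc25a33 and Slc25a36 (pyrimidine nucleotides). Slc25a17, a carrier of the peroxisomal membrane, had a log2 change of 0.36 (limma adjusted p = 0.0768), and was called higher without cre_negative library 2 (adjusted p = 0.0451) or cre_positive library 1 (adjusted p = 0.0323). Slc25a26 was called lower without cre_negative library 3 (-0.27, adjusted p = 0.0242). The locus given for Slc25a26 ends 95486 bases beyond the RefSeq gene. The annotation also places 144 of its exon bases opposite exons of Lrig1, which was called higher (log2 change 0.52, limma adjusted p = 5.29e-04).

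Neither iron importer was called. Slc25a37 (mitoferrin 1), best known from red cell precursors, stood at 3.50 ± 0.257 and 2.91 ± 0.372 FPKM, and the more widely expressed Slc25a28 (mitoferrin 2) at 10.8 ± 2.04 and 9.23 ± 0.782 FPKM (SD, n = 4). The 95% interval of the log2 change ran from -0.42 to 0.01 for Slc25a37 and from -0.48 to 0.10 for Slc25a28. Without cre_negative library 3, the lowest control, Slc25a28 was called lower (-0.32, adjusted p = 0.0147). Their log2 ratio, Slc25a37 to Slc25a28, was -1.60 ± 0.40 and -1.67 ± 0.24 (exact permutation p = 0.80). Summed erythroid markers (hemoglobin genes and others) ran from 944 to 2803 FPKM in cre_negative and from 1183 to 1589 FPKM in cre_positive libraries.

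The largest called fall among the 40 carriers was that of an orphan carrier with no settled substrate. Slc25a34 (chromosome 4, 141618825 to 141623834) stood at 82.4, 105.05, 59.3 and 83.96 FPKM in controls, against 18.0, 20.9, 23.7 and 25.01 FPKM with Cre. No cre_positive library came near the controls. The mean fell from 82.7 ± 18.7 to 21.9 ± 3.11 FPKM (SD, n = 4), 3.77-fold lower, for a log2 change of -1.85 ± 0.16 (SE; limma adjusted p = 1.28e-05). By group means among the 40 it was second to Slc25a3 in controls, and in cre_positive libraries it lay below Slc25a39, Slc25a23 and Slc25a46 as well.

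Slc25a35, the closest relative of Slc25a34, stood at 2.37, 2.43, 2.44 and 2.48 FPKM in controls, against 1.68, 1.69, 1.98 and 1.62 FPKM with Cre (log2 change -0.32 ± 0.09 SE, limma adjusted p = 0.0159). It was not called under scaling to a fixed sum (-0.12, adjusted p = 0.315) nor within either Rn45s set. It shares 1151 exon bases on the opposite strand with Rangrf, which fell from 64.1 ± 17.8 to 37.5 ± 9.53 FPKM (SD, n = 4), and without the use of strand reads of these genes could not be told apart. The log2 ratio of Slc25a34 to Slc25a35 was 5.12, 5.44, 4.60 and 5.08 in controls against 3.42, 3.63, 3.58 and 3.95 with Cre, a difference of -1.42 without overlap (exact permutation p = 0.0286, adjusted p = 0.0786). Slc25a46, an outer membrane protein of mitochondrial shape, stood at 33.4, 30.2, 35.4 and 32.5 FPKM in controls, against 31.8, 31.8, 26.02 and 25.9 FPKM with Cre and was not called (log2 change -0.19, limma adjusted p = 0.145). Slc25a47, best known from liver, had means of 2.15 ± 0.444 and 1.54 ± 0.464 FPKM (SD, n = 4; controls first) and was not called. Slc25a43, Slc25a53 and Slc25a54 were at most at 0.379, 0.198 and 0.0753 FPKM, and Slc25a48 was listed at 0.01 FPKM in each library.

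**Figure D3:**
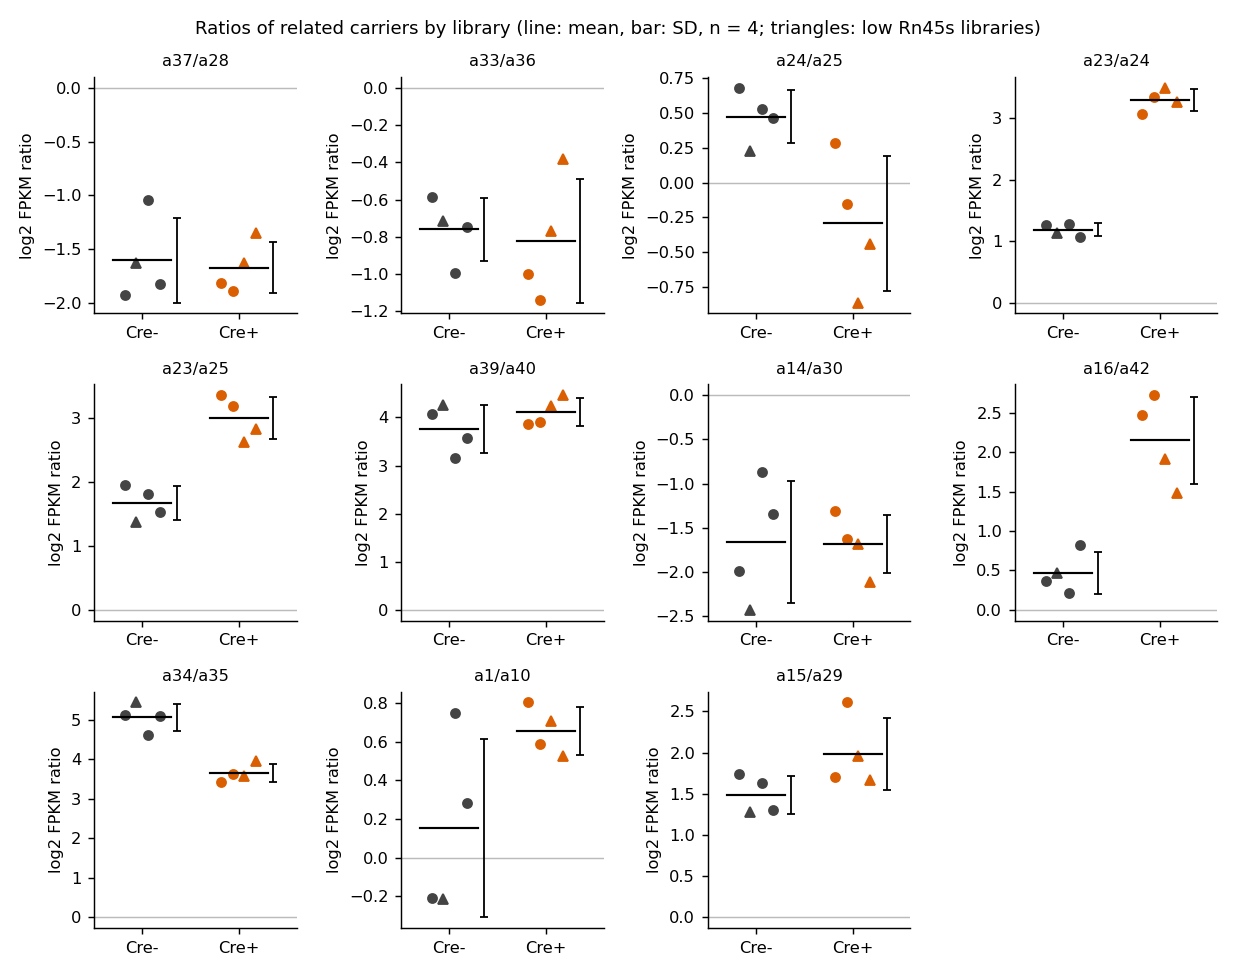
Log2 ratio of FPKM (y axis) of related carriers in each cre_negative (Cre-) and cre_positive (Cre+) library for the 11 pairs tested, with Slc25 left off the names; lines are means, bars SD (n = 4) and triangles low-Rn45s libraries. The groups are apart for 4 pairs (a23/a24, a23/a25, a16/a42 and a34/a35), with differences of 2.10, 1.33, 1.68 and -1.42. Each of these pairs holds Slc25a23, Slc25a34 or Slc25a42, the carriers with the largest changes, so the ratios are not separate results. Taken singly, 38% of all tested genes did not overlap.

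Spread within groups differed among members. In controls the coefficient of variation was 1.81% for Slc25a35, 3.21% for Slc25a36 and 4.10% for Slc25a51, but 34.4% for Slc25a22 and 31.3% for Slc25a30. Cre_negative library 2, which had low Rn45s, was the highest control for 12 of the 30 tested carriers, and cre_negative library 3 the lowest for 13. Cre_positive library 4 was the highest of its group for 14 and cre_positive library 1 the lowest for 14. These libraries also differ in depth and Rn45s, and the part of either in the results was not tested beyond the values given for each set.

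Carriers reach the inner membrane through small TIM chaperones and the TIM22 complex, which insert proteins with internal signals. Of 9 tested genes of this route 4 were called lower and 0 higher, at a median log2 change of -0.26. The share called, 44.4%, was near the 39.2% of all tested genes. Timm10 and Timm9, the chaperones that hold carriers between the membranes, fell to 60.9 ± 5.89 FPKM from 91.8 ± 10.6 and to 16.0 ± 0.773 FPKM from 24.1 ± 2.93 (SD, n = 4). The receptor Tomm70a fell by 0.39 and Agk, a subunit of the translocase, by 0.37 on the log2 scale. The channel subunit Timm22 itself was not called (log2 change -0.26, limma adjusted p = 0.0515).

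Among other transporters of the inner membrane 4 of 18 tested were called higher and 6 lower (55.6% called, beside 39.2% of all tested genes), at a median log2 change of -0.16. Mpc2, a subunit of the pyruvate carrier, fell to 182 ± 27.5 FPKM from 358 ± 63.9, and Abcb10, an ABC transporter, to 8.91 ± 1.52 FPKM from 14.6 ± 2.05 (SD, n = 4). Mcu, the pore of the calcium uniporter, which was chosen after its value was seen, fell from 11.1 ± 1.46 to 7.86 ± 0.520 FPKM. Sfxn3, a sideroflexin, rose by 0.57 on the log2 scale.

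Family members with other symbols also went both ways. Of 4 tested 1 was called higher and 2 lower (75% called, beside 39.2% of all tested genes). Ucp3, the uncoupling protein of muscle, stood at 29.1, 53.3, 19.5 and 70.4 FPKM in controls, against 7.93, 6.73, 8.83 and 9.22 FPKM with Cre (log2 change -2.11, limma adjusted p = 5.40e-04). Mtch1, an outer membrane relative, rose from 65.05 ± 8.69 to 95.02 ± 4.33 FPKM, and its homologue Mtch2 fell from 73.6 ± 0.894 to 59.4 ± 2.18 FPKM (SD, n = 4). Of the 7 carriers left out by the rule 2 were called higher and 4 lower (85.7% called), at a median log2 change of -0.75.

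Enzymes that make or use the carried substrates were counted by substrate. Of 68 tested 8 were called higher and 30 lower (55.9% called, beside 39.2% of all tested genes), at a median log2 change of -0.24. Each of the 5 NAD and NADP genes was called lower, among them Nampt, which makes the NAD precursor and fell from 89.8 ± 12.8 to 28.7 ± 2.60 FPKM, and Nadk2, the mitochondrial NAD kinase, from 29.4 ± 2.21 to 14.4 ± 1.26 FPKM (SD, n = 4). Enzymes that bind thiamine pyrophosphate, or handle thiamine, were called lower in 5 of 7 tested, with Bckdhb, Pdhb, Bckdha and Pdha1 at log2 changes of -1.10, -0.83, -0.74 and -0.73. For coenzyme A synthesis 2 of 8 (25%) were called lower (Pank4 and Pank1) and 0 higher. In the heme and iron-sulfur list 3 of 9 (33.3%) were called lower and 0 higher. Alas1, the enzyme that joins the glycine brought in by Slc25a38 to succinyl-CoA, fell from 149 ± 12.1 to 54.5 ± 5.65 FPKM.

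In the glutathione list 2 of 6 tested genes were called higher and 0 lower (33.3% called, beside 39.2% of all tested genes). Gpx1, a glutathione peroxidase, rose from 76.7 ± 14.3 to 199 ± 4.04 FPKM and the synthetase Gss from 7.52 ± 1.57 to 17.8 ± 0.262 FPKM (SD, n = 4). For citrate and malate 4 of 8 were called lower and 1 higher (62.5% called). Citrate synthase (Cs) fell by 0.60 on the log2 scale, while Acly, which splits exported citrate in the cytosol, rose by 0.27. In the ornithine and glutamate list 2 of 7 were called higher and 3 lower (71.4% called). The folate and glycine list had 1 of 6 higher and 3 lower (66.7%), and that of S-adenosylmethionine 1 of 3 and 0 (33.3%). In that of pyrimidine nucleotides and mitochondrial DNA it was 1 of 9 and 5 (66.7%). Each of these shares rests on few genes.

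**Figure D4:**
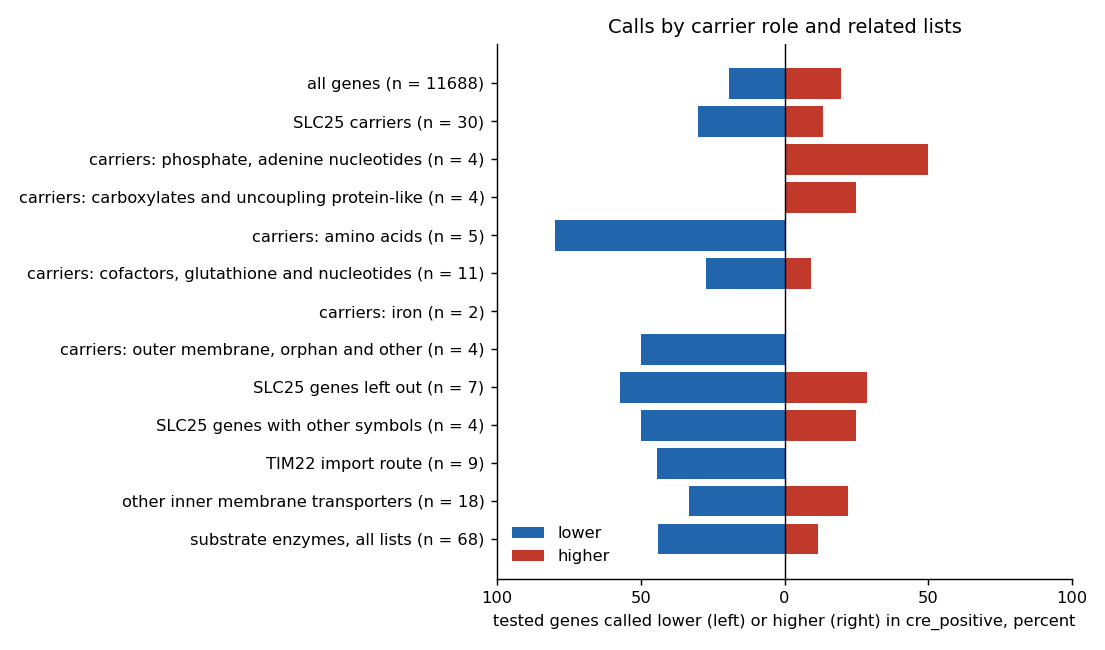
Share of tested genes called lower (left, blue) or higher (right, red) in cre_positive libraries, in percent, for all genes, the carriers, their role groups and related lists, with the number tested in parentheses. Of the amino acid carriers 4 of 5 were lower, and of the iron carriers none of 2 was called.

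Markers of the cell types of the ventricle were measured in the same libraries. Over all tested genes 39.2% were called, and the groups did not overlap for 38%. The 9 cardiomyocyte markers summed to 58216 to 61734 FPKM in cre_negative and to 27374 to 27983 FPKM in cre_positive libraries. Of these, 7 were lower without overlap, and none was at 0.01 FPKM in all libraries. The groups overlapped for Actn2 and Actc1, which were not called (log2 changes -0.01 and 0.02). Their means, controls first, were 722 ± 94.0 and 716 ± 22.6 FPKM for Actn2, and 10403 ± 1251 and 10513 ± 726 FPKM for Actc1 (SD, n = 4). In bulk tissue fewer cells of a type and less RNA per cell cannot be told apart. The 7 fibroblast markers summed to 538 to 619 and 677 to 753 FPKM, with 4 called higher and 1 lower (71.4% called). The 7 endothelial markers summed to 1282 to 1404 and 829 to 959 FPKM, with 3 called lower and 0 higher. That share, 42.9%, was near that of all tested genes. Fabp4 made up most of the endothelial difference (972 ± 56.2 and 615 ± 51.1 FPKM, mean ± SD), and Pecam1, Tie1, Egfl7 and Emcn were not called. The 7 macrophage markers summed to 267 to 334 and 165 to 238 FPKM, with 5 called lower and 0 higher (71.4% called). The 7 markers of smooth muscle and pericytes summed to 460 to 604 and 924 to 1375 FPKM, with 3 called higher and 1 lower (57.1% called). Acta2, smooth muscle actin, made up most of that difference (194 ± 48.0 and 779 ± 169 FPKM; SD, n = 4), while Kcnj8 was called lower and Rgs5 and Myh11 were not called (log2 changes -0.39, -0.21 and -0.09). Of the 6 fat cell markers, which summed to 32.1 to 37.2 and 39.6 to 47.8 FPKM, Cidea made up most, and the brown fat carrier Ucp1 was at 0.0700 FPKM or less. Neutrophil and platelet markers summed to 26.2 to 106 and 13.3 to 20.9 FPKM. The part of cell composition in the carrier results was not tested.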

How the data were processed

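RNA of 8 ventricular lysates was sequenced from stranded, ribosome-depleted total RNA libraries, per the labels' protocols. The authors deposited FPKM values, 1 per gene symbol and library, made with Bowtie2 2.2.6 and Cufflinks on mm10, per the submitters' processing notes. The annotation and whether counting used strand are not given in the sources. The lowest value in the table is 0.01 FPKM, and 6 cells of 3 genes hold words and were treated as missing. Starts were raised by 1 base, which matched 11866 of them to RefSeq (GRCm38), where 680 matched before. All 40 carriers matched the RefSeq gene table by symbol.

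Groups were compared on log2(FPKM + 1) in limma 3.58.1 (R 4.3.3; lmFit, eBayes with trend) for 11688 genes whose mean reached 1 FPKM, with p adjusted over all of them by Benjamini-Hochberg. The filter left out 10 carriers. Depth was estimated from the FPKM of 3664 genes with 1 transcript of 500 to 4000 bases, whose product with length clusters at the value of 1 fragment. At 1 FPKM a transcript of 2 kb rests on 8.93 to 46.9 fragments, and a count of 0 allows up to 3 fragments, or 0.0640 to 0.336 FPKM. These limits cover counting error only. The fit was tested on simulated data.

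Members, lists and tests were chosen with earlier results of these data known. Values in every library are given for the 12 called carriers with the largest change, the 6 most abundant and those of pairs whose ratios did not overlap; lists are given by counts and up to 4 called genes. Some genes these rules name, 1 carrier among them, are counted but not reported here. Alternatives were pseudocounts, filters, scalings, variance settings, the Rn45s set as a term or alone, a replicate block and leaving out each library.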

Additional observations from a re-analysis of the deposited data

Results flagged for a closer look

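In each group of 4 libraries the highest and the lowest value of the 30 tested carriers were compared with the other 3, which makes 60 groups. In 3 of them 1 library lay apart from the rest by Dixon's ratio of gap to range, where chance flags about 1 group in 20. Slc25a17 stood at 10.1 FPKM in cre_positive library 1, against 13.4 to 13.7 FPKM in the other cre_positive libraries. Slc25a23 stood at 45.1 FPKM in cre_positive library 1, against 35.5 to 36.5 FPKM in the others. Slc25a32 stood at 4.94 FPKM in cre_negative library 2, against 6.59 to 6.89 FPKM in the other controls.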

How the results depend on the processing

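The carriers called numbered 13, and 8 (2 higher, 6 lower) among the 5 libraries with high Rn45s alone, where 3092 of all genes were called. Leaving out each library in turn gave 11 to 15 carriers and 3724 to 4652 of all genes, beside 4576. The labels do not say whether the numbers of the titles pair the libraries. Deviations of same-numbered libraries correlated at -0.09, -0.16, -0.13 and -0.08 across genes. Same-numbered libraries 2, 3 and 4 lie in opposite Rn45s sets, so these correlations cannot decide it. With the replicate block 10 carriers and 3862 genes were called. Scaling to a fixed sum gave 5355 higher and 1028 lower genes, beside 2307 and 2269, and 14 carriers. Slc25a23, Slc25a34 and Slc25a42 were called in the same direction in all 21 alternatives each. Slc25a15 was called in 14 of 21, Slc25a39 in 12 of 21 and Slc25a35 in 16 of 20. The number of pairs without overlap was 4 of 11, 1 of 3 when both means had to reach 5 FPKM (fewer pairs remain), and 4 to 5 without 1 library. Taken singly, 38% of all tested genes did not overlap.

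None of the 13 called carriers changed direction in any alternative run. Uncalled carriers that changed sign did so under scaling to a fixed sum at 0.24 for Slc25a16, 0.15 for Slc25a24, 0.14 for Slc25a26, 0.0949 for Slc25a28, 0.12 for Slc25a32, 0.13 for Slc25a33, 0.19 for Slc25a36, 0.0294 for Slc25a37 and 0.11 for Slc25a46. In the 3 low-Rn45s libraries they were Slc25a16 (0.0698), Slc25a32 (0.0801), Slc25a33 (0.0110) and Slc25a45 (-0.0706), and in the 5 high-Rn45s libraries Slc25a24 (0.00491). Without 1 library Slc25a16 ran from -0.0903 to 0.0188. The cause of these changes was not tested.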
